A study of Mus musculus with 20 samples.

Results

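Interferon-stimulated genes are the antiviral programme that a macrophage switches on when it sees type I interferon. Here 39 such genes, with the STAT and IRF factors that drive them, were followed across 20 bead arrays of mouse macrophages. They were chosen by name, and every probe whose platform annotation carries one of the symbols, or an older or newer alias, was taken. Of the 39 genes, 37 had a probe (67 of the 45281 probes on the array) and 34 passed the detection filter (52 probes), out of 10018 genes tested in all. Ifi44 and Ifi203 had no probe of that symbol, and Ifit1, Isg20 and Xaf1 had probes but were detected on too few arrays to be tested (0, 2 and 0 arrays at best).

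As background, type I interferons are secreted proteins that bind the receptor made of Ifnar1 and Ifnar2. The kinases Jak1 and Tyk2 on that receptor then activate STAT proteins, among them STAT2, which joins IRF9 in a complex that binds interferon-stimulated response elements and turns on antiviral genes. IRF3 and IRF7 act earlier, at the interferon genes themselves, while IRF1 is raised by interferon and by inflammatory signals and shares part of the same target genes. Macrophages grown from marrow are known to carry a low tonic level of this programme without infection.

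The cells were bone marrow-derived macrophages of C57BL/6 mice, cultured 6 days in medium holding 10 percent serum and M-CSF at 40 ng/ml. The study asks how cyclodextrin, a sugar ring that takes up cholesterol, acts on macrophages laden with cholesterol crystals. Untreated cells (con) received neither agent, cc cells received 200 ug of cholesterol crystals, scaled to cell number, for 3 h, CD cells received 10 mM hydroxypropyl-beta-cyclodextrin for 6 h, and CD-cc cells received the crystals and then the cyclodextrin. Each group held 5 arrays. The labels give an age of 10 to 15 months for con and of 2 to 5 months for the other 3 groups, so age and treatment cannot be told apart in any comparison with con. The sources used here do not give how long con and cc cells stood while others were in cyclodextrin, and the labels give no genotype, although the design text speaks of LXR double knockout mice and wild type littermates. Whether arrays of a group came from separate animals or cultures is not stated, so p-values measure the spread between arrays, which may be technical.

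In the authors' own value table the 20 arrays carry 5 batch adjustments, each shared by 4 arrays, 1 from every group, called sets 1 to 5 here. Sets 1 to 3 lay on chips 1 and 5 and had Xist up to 11.5 and never below 10.997 on the log2 scale. Sets 4 and 5 lay on chips 2, 3, 4 and 6, with Xist between 4.26 and 4.45 and Eif2s3y between 10.2 and 10.9. Sex is read here from these genes. It cannot be told apart from chip batch or from anything else that differed between the batches. Between 15342 and 17892 probes were detected per array, and precision is limited by the 5 arrays a group. Of 10 macrophage markers 8 had a probe and all 8 were detected, with medians per group from 11.2 to 11.5. None of 5 dendritic, 1 of 7 neutrophil and 2 of 5 plasmacytoid dendritic markers was detected, against 5 of 5 stromal fibroblast markers, whose median per group lay between 5.39 and 5.65.

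Most of the antiviral programme was already measurable in unstimulated macrophages. The probe standing for its gene was detected on all 20 arrays for 26 of the 34 tested members and on all 5 con arrays for 27. By that probe Ifi205, a DNA-binding protein of the p200 family, and Ifih1, the long double-stranded RNA sensor MDA5, were detected on 0 con arrays. Each therefore has only a bound there. Another Ifi205 probe was detected on 2 con and 2 cc arrays. The Ifi205 probe standing for the gene was detected on 0 cc arrays too, and passed the filter only through 4 CD and 3 CD-cc arrays. It therefore had to be higher in those groups, its tests support nothing, and counts are also given over the 33 other members where they differ in what passed. The interferon genes themselves gave little to follow. Ifnb1, which encodes interferon beta, was detected on at most 2 arrays, and 3 of the 13 listed interferon genes passed the filter (Ifna1, Ifna6 and Ifnab), and limma called 0 of these 3 in any comparison (lowest adjusted p = 0.379 without a block and 0.182 with the set as a block). Ifnar1 was detected on 0 arrays and Ifnar2 on all 20. Secretion of interferon was not measured.

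The stretches before the start of several members are given because the results below turn on these members. Sequence before a RefSeq start (GRCm38.p6) was available for 29 of the 39 members. The 250 bases before the most upstream start with such sequence were searched on both strands, 1 stretch a gene. The motif sought was the core of the interferon-stimulated response element, written here as GAAA, 2 bases of any kind and GAAA. It was found in 11 of 29 members (37.9 percent), against 3.05 percent of 27025 genes searched in the same way. The 11 are Rsad2, Cxcl10, Ifit1, Ifit3, Isg15, Oas1a, Oas3, Stat2, Ifi205, Trim30a and Bst2. TTCNNNGAA, the core of the gamma-activated site, was in 7 of 29 members (24.1 percent, against 7.14 percent of all), among them Irf1, Ifit2 and Samhd1. A form of the NF-kB site, written as GGG, 2 bases of any kind and TTTCC, was in 0 of 29, against 1.41 percent of all, which says only that these letters are not in these stretches. Matches on top of each other were all kept, as in Bst2, where the gamma-activated core overlaps a response element core, and a match is a run of letters, not a measured binding site. Capitals mark the response element core in the first 4 stretches and the gamma-activated core in Irf1.
Cxcl10, chr5:92348890-92349139, minus strand: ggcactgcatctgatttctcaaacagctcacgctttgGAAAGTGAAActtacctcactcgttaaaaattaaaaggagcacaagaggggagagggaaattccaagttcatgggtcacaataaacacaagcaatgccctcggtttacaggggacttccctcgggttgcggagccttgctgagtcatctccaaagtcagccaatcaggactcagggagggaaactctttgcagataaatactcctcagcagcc
Rsad2, chr12:26456453-26456702, minus strand: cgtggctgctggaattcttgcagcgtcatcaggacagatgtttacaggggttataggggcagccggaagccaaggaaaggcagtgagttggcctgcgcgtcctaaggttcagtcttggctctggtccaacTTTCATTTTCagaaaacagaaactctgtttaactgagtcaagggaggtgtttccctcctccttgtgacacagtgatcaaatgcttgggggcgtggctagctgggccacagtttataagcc
Ifit3, chr19:34583279-34583528, plus strand: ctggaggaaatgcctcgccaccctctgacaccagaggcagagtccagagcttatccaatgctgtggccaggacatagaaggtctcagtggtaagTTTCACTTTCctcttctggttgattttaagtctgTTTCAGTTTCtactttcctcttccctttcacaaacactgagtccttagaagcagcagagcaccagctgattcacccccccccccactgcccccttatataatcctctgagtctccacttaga
Isg15, chr4:156200819-156201068, minus strand: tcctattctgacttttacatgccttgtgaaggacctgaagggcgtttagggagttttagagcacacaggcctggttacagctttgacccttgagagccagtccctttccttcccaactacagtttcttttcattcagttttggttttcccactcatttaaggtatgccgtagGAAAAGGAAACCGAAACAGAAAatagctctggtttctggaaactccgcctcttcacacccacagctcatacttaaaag
Irf1, chr11:53769764-53770013, plus strand: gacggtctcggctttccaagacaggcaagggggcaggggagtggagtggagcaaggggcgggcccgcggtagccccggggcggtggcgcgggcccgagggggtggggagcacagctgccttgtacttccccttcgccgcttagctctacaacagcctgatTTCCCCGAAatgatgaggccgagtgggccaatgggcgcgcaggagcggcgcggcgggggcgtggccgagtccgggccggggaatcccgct
Isg15 carried 3 overlapping cores, Ifit3 carried 2, and Cxcl10 and Rsad2 carried 1 each. The Ifit3 stretch lies inside the annotated gene, which begins at base 34583119 of chromosome 19, so it precedes an inner start.

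A few members were lower in cells given cholesterol crystals alone, and none was called higher. In cc against con 3 of 34 tested members fell and 0 rose, beside 17.5 percent of all genes called in either direction (8.97 percent lower and 8.49 percent higher). The 3 were Oas2, Samhd1 and Irf9. The share of members called was below that of all genes, and 5 of 34 members had an unadjusted p below 0.05, against 29.6 percent of all genes. Calls are limma's, with p adjusted by Benjamini-Hochberg across the 10018 genes and a threshold of 0.05, each value after ± is the standard error of a log2 change, and n = 5 arrays a group.

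Oas2, which makes the oligoadenylates that activate RNase L, lay at 8.45, 8.28, 8.95, 8.21 and 8.31 on the con arrays of sets 1 to 5 (log2 signal) and at 7.34, 7.53, 8.05, 7.46 and 7.66 on the cc arrays. The groups did not overlap, and cc was lower in every set. It was 1.78-fold lower after crystals (log2 -0.83 ± 0.206, limma adjusted p = 0.00812, and 8.17e-05 when the set was a block). Samhd1, the phosphohydrolase that depletes nucleotides needed by retroviruses, lay at 9.59, 9.97, 9.75, 9.71 and 9.87 in con and at 9.15, 8.95, 9.46, 9.22 and 9.52 in cc. These groups did not overlap either, and Samhd1 was 1.43-fold lower (log2 -0.52 ± 0.162, limma adjusted p = 0.0325). In the fit of all probes its further detected probes gave -0.71 and -0.12, and neither passed (limma adjusted p = 0.0621 and 0.859).

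The means of all 4 drivers were lower after crystals, and Irf9 passed. Irf9, the DNA-binding partner of STAT2, read 8.84, 8.78, 9.19, 8.93 and 8.99 in con and 8.34, 8.48, 8.59, 8.49 and 8.62 in cc, with no overlap. It was 1.36-fold lower (log2 -0.44 ± 0.147, limma adjusted p = 0.0429). Stat2 read 7.09, 7.01, 7.71, 6.90 and 7.26 in con and 6.39, 6.97, 7.16, 6.59 and 6.51 in cc. Stat2 was lower in 5 of 5 sets but the groups overlapped, and its log2 difference of -0.47 ± 0.211 had a limma adjusted p of 0.14 without a block and 0.0185 with the set as a block. Irf7, the amplifier of interferon genes, read 7.28, 7.25, 8.32, 6.03 and 6.50 in con and 6.14, 6.42, 7.57, 5.89 and 6.63 in cc. Its sets differed more from each other than its groups did, with a difference of -0.55 ± 0.422 (limma adjusted p = 0.438, and 0.0352 with the block). Irf1 read 11.12, 10.92, 10.78, 10.47 and 10.63 in con and 10.63, 10.26, 10.84, 10.21 and 10.48 in cc, a log2 difference of -0.30 ± 0.349 that did not pass with or without the block (adjusted p = 0.645 and 0.531). The Irf9 and Samhd1 calls depended on the processing, with limma adjusted p from 0.00792 to 0.465 and from 0.00841 to 0.393 over the alternatives. Both were lost with scale normalization (0.465 and 0.386), with the chip as a fixed block (0.174 and 0.0515) and on chips 2, 3, 4 and 6 alone (0.411 and 0.393). Both were also lost without any one of cc replicates 1, 3 and 5 or con replicates 2 and 4. The Irf9 call was lost too without the detection filter (0.0605), over all detected probes (0.05145) and on chips 1 and 5 alone (0.092). With the set block it ended without set 3 (0.0639), and that of Samhd1 without set 1 or 2 (0.058 and 0.0819). Leaving out con replicate 1 or 3, cc replicate 2 or CD-cc replicate 3 also ended the Irf9 call, and leaving out con replicate 5 that of Samhd1. Oas2 lost its call with scale normalization (0.0907) and on chips 2, 3, 4 and 6 alone (0.274).

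With the set of arrays as a block, 8 members fell and 0 rose after crystals, beside 27.7 percent of all genes called, 15.2 percent lower and 12.5 percent higher. Without set 1, 2, 3, 4 or 5 in turn the count was 4, 5, 4, 7 and 11. Shares of all genes are not given for fits with a set left out. Such counts do not tell whether members moved more than other genes. The 8 were the 3 above with Stat2, Irf7, the RNA helicase Dhx58 (LGP2), the RNA-activated kinase Eif2ak2 (PKR) and Oasl2, which binds double-stranded RNA. Oasl2 read 11.08, 10.72, 11.41, 9.65 and 10.38 in con and 10.02, 9.96, 10.97, 9.39 and 9.77 in cc. It was lower in 5 of 5 sets while the groups overlapped across sets (log2 -0.63, adjusted p = 0.223 without and 0.00357 with the block). In all, 11 of 34 members were lower in 5 of 5 sets, against 17.8 percent of all genes, and 2 (Rsad2 and Tor3a) were higher in all 5, against 15.8 percent.

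Other antiviral effectors had higher mean values in cc cells without passing the test. Rsad2, the enzyme viperin that makes a chain-terminating nucleotide, read 9.05, 8.40, 9.20, 7.51 and 8.18 in con and 9.47, 8.53, 10.12, 8.48 and 9.60 in cc. It was higher in every set, by 0.77 ± 0.444 (log2), which did not pass (limma adjusted p = 0.262, and 0.0709 with the block). Ifit2, which restrains translation of viral RNA, read 8.71, 7.84, 8.48, 6.86 and 7.44 in con and 8.33, 8.05, 9.60, 7.10 and 8.09 in cc, a difference of 0.37 ± 0.452 with overlapping groups. Oas1a differed by 0.33 ± 0.184, from 5.46, 4.63, 5.34, 5.03 and 4.73 in con to 5.62, 5.50, 5.59, 4.99 and 5.15 in cc. Tor3a, a torsin-family ATPase, differed by 0.33 ± 0.236, from 5.06, 5.12, 5.16, 5.32 and 5.26 in con to 5.25, 5.597, 5.48, 5.57 and 5.69 in cc. None of these 4 passed with limma, with or without the block, and the groups overlapped for each. Members as a whole had a median log2 change of -0.135 (range -0.83 to 0.77), against -0.0166 for all genes, with 16 members above 0 and 18 below. Without Ifi205 the median was -0.23. Over all 34 the median took the opposite sign without con replicate 1 (0.0656) or without cc replicate 3 (0.0788).

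Some genes listed as markers of other cells also differed between cc and con, in both directions. Kit, the only one of 4 mast cell markers detected, had a mean of 4.49 in con and 8.45 in cc (log2). The 2 detected plasmacytoid dendritic markers, Cox6a2 and Pacsin1, had a median of 5.38 in con and 6.28 in cc. In the same order, detected B cell markers had medians of 5.13 and 4.78, and neutrophil markers 6.14 and 6.01. Stromal fibroblast markers had 5.65 and 5.59, erythroid 4.62 and 4.55, and T and NK 4.49 and 4.61. With 1 or 2 genes detected, a list does not tell whether such cells differed in number. The part of these genes in the lower level of the 3 members was not tested. In bulk RNA fewer cells of a type and less RNA per cell cannot be told apart.

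**Figure D1:**
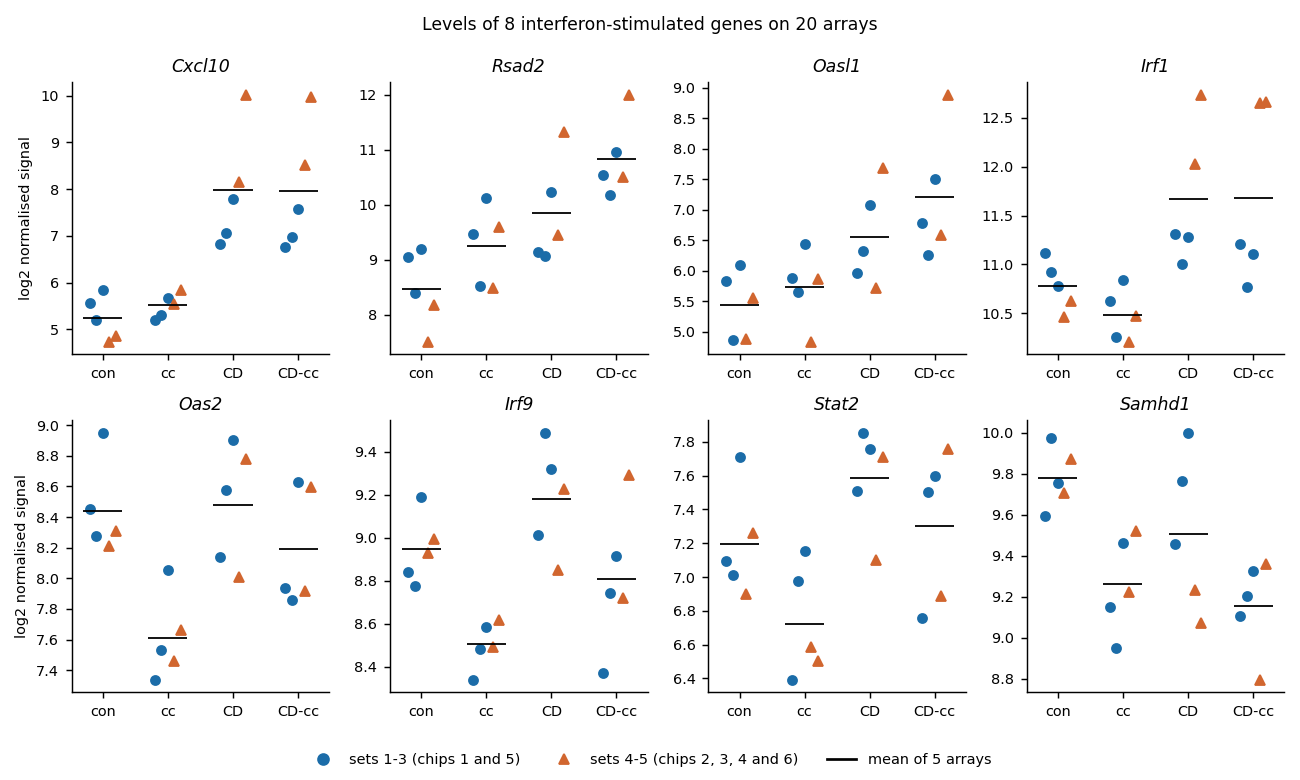
Log2 normalised signal of 8 members on the 20 arrays, by group (x axis), with circles for sets 1 to 3, triangles for sets 4 and 5 and a line at the mean of 5 arrays. Cxcl10 in CD and CD-cc lay above every con and cc array, while Oas2 and Irf9 in cc lay below every con array.

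In cells given cyclodextrin alone the chemokine of the programme was higher, and 5 more members, Ifi205 aside, passed when arrays were compared within their sets. In CD against con 1 of 34 members rose and 0 fell, beside 1.13 percent of all genes called in either direction (0.848 percent higher and 0.279 percent lower). That member was Cxcl10, which attracts T cells through the receptor CXCR3. Cxcl10 read 5.57, 5.21, 5.85, 4.74 and 4.85 on con arrays and 6.83, 7.07, 7.79, 8.16 and 10.02 on CD arrays. No CD array came down to the highest con array, and the 2 highest values were those of sets 4 and 5. Cxcl10 was 6.63-fold higher (log2 2.73 ± 0.544, limma adjusted p = 0.0151, and 0.00188 with the block). Its second probe, detected on 12 arrays, gave 1.06 in the fit of all probes (limma adjusted p = 0.271), and the call was lost with quantile normalization without background correction (log2 1.49, adjusted p = 0.122) and without CD replicate 1 (2.68, adjusted p = 0.0538).

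With the set as a block 7 members rose and 0 fell in CD cells, beside 4.12 percent of all genes called, 2.57 percent higher and 1.56 percent lower. Ifi205 is one of the 7, and over the 33 other members the count is 6. These were Cxcl10, Rsad2, Ifit2, Oasl1, Usp18 and Parp14. Each call is that of the probe standing for its gene. In the fit of all probes with the block, the further detected probes of Cxcl10, Ifit2, Oasl1, Usp18 and Parp14 were also above 0. None of them passed (limma adjusted p from 0.110 to 0.417). The count of 7 became 7, 4, 3, 1 and 3 without set 1, 2, 3, 4 or 5 in turn, with no share of all genes to set beside it. Rsad2 read 9.15, 9.07, 10.23, 9.44 and 11.33 on CD arrays, above its own con array in every set although the groups overlapped. Its difference was 1.38 ± 0.444 (limma adjusted p = 0.188 without the block and 0.0165 with it). Oasl1, which in the mouse restrains Irf7 translation, read 5.82, 4.86, 6.09, 4.87 and 5.55 in con and 5.97, 6.32, 7.08, 5.72 and 7.69 in CD. The smallest of its set differences was that of set 1, and the fitted difference was 1.12 ± 0.446 (adjusted p = 0.331, and 0.0298 with the block). Ifi205 read 4.22, 4.28, 4.37, 4.18 and 4.31 in con, where no array detected it, and 4.99, 4.64, 5.24, 6.01 and 7.56 in CD, where 4 did. By this probe, the one standing for the gene, it was at least 1.94-fold higher, a description only. The other 2 Ifi205 probes gave smaller log2 changes of 0.60 and 0.59.

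Parp14, an ADP-ribosyltransferase, differed by 0.66 ± 0.219 with no overlap between groups, and Usp18, the protease that removes ISG15 from proteins and dampens the interferon receptor, by 0.88 ± 0.336. Both passed with the set block only (adjusted p = 0.0348 and 0.0139). Among the drivers Irf1 differed by 0.89 ± 0.349 (adjusted p = 0.319, and 0.135 with the block), from the con values above to 11.31, 11.002, 11.28, 12.02 and 12.73. The CD arrays of sets 4 and 5 stood above all other con, cc and CD arrays. Stat2 read 7.51, 7.85, 7.76, 7.10 and 7.71 in CD (difference 0.39 ± 0.211), Irf9 9.01, 9.49, 9.32, 8.85 and 9.23 (0.23 ± 0.147) and Irf7 6.94, 7.72, 8.05, 6.27 and 7.32 (0.19 ± 0.422). The 3 overlapped with con and passed with neither fit.

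Samhd1 and Oasl2 stood at the low end of the list in CD cells, and neither passed. Samhd1 read 9.46, 9.76, 10.00, 9.23 and 9.07, a difference of -0.27 ± 0.162, and was lower mainly in sets 4 and 5. Oasl2 read 10.60, 10.79, 11.23, 10.04 and 10.45, a difference of -0.03 ± 0.335. In all 31 of 34 members lay above 0, with a median log2 change of 0.37 against -0.017 for all genes, of which 46.1 percent lay above 0. With Ifi205 and Ifih1 set at their bounds the median was the same to 2 decimals, and without Ifi205 30 of 33 lay above 0, with a median of 0.34. Against con, 11 of 34 members (10 of 33 without Ifi205) were higher in 5 of 5 sets, beside 6.36 percent of all genes. None was lower in all 5, beside 7.37 percent.

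**Figure D2:**
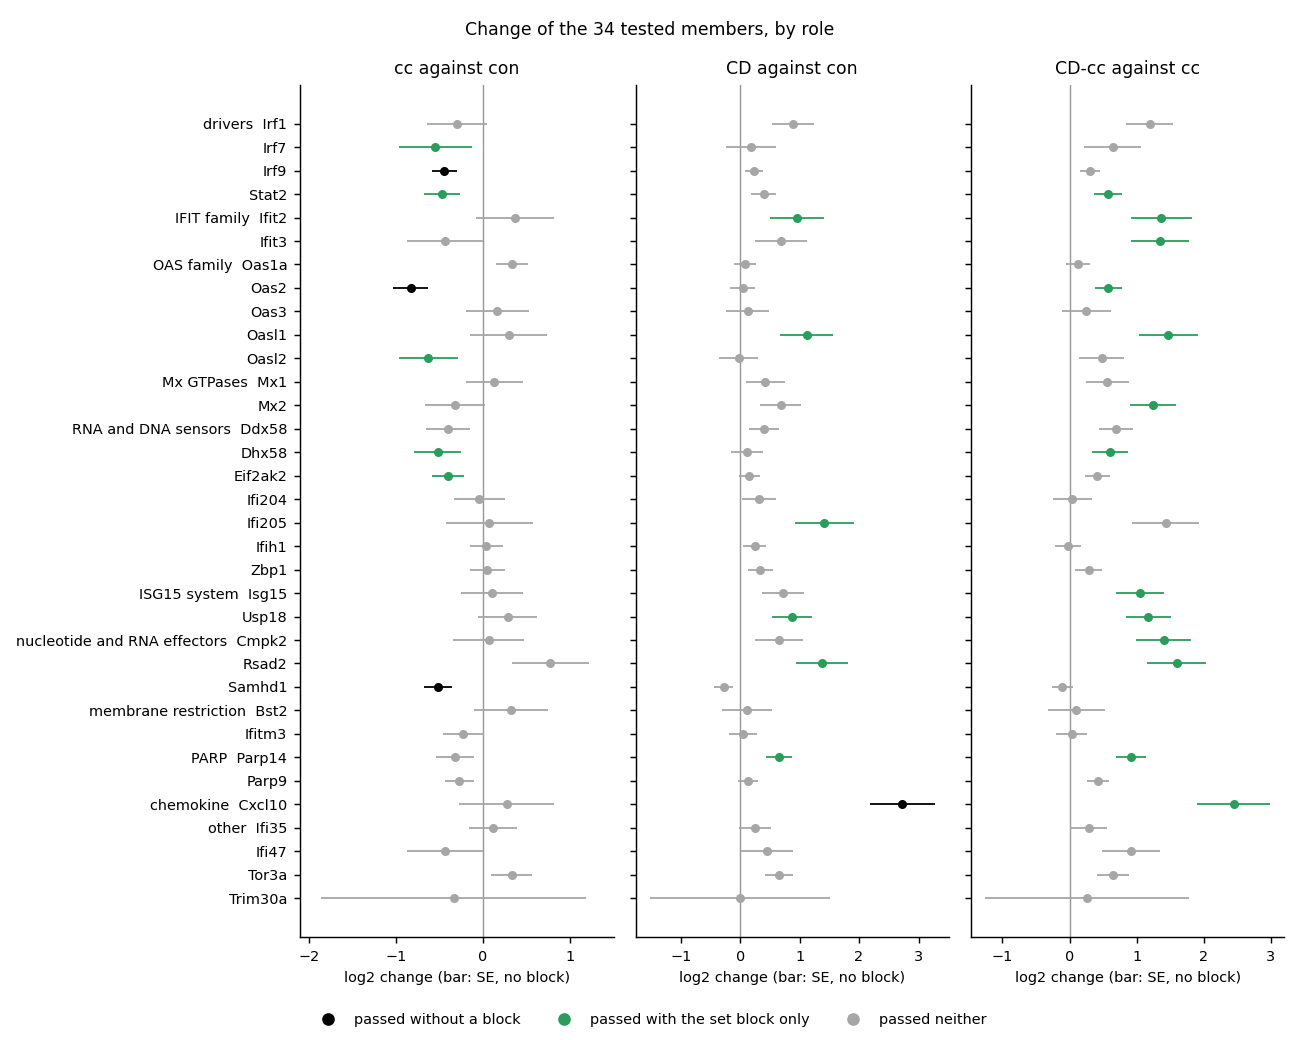
Fitted log2 change (x axis, bars are standard errors without a block) of the 34 tested members, ordered by role, in 3 comparisons. Black points passed without a block, green points with the set block only, with 16 members above 0 and 18 below after crystals, and 31 (CD against con) and 32 (CD-cc against cc) of 34 above 0 after cyclodextrin.

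When cyclodextrin followed the crystals, antiviral effectors and the chemokine were higher than with crystals alone, in the fit that compares arrays within their sets. In CD-cc against cc limma called 0 of 34 members without a block, where it also called 0 genes of all. At an unadjusted p below 0.05 it found 20 of 34 members, against 8.14 percent of all genes, and the lowest adjusted p of a member was 0.124. With the set as a block 13 members rose and 0 fell, beside 1.8 percent of all genes called, 1.29 percent higher and 0.509 percent lower. This comparison has the same age label and the same crystal dose on both sides, unlike those with con. The 13 were Cxcl10, Rsad2, Cmpk2, Oasl1, Oas2, Ifit2, Ifit3, Mx2, Isg15, Usp18, Dhx58, Stat2 and Parp14. In the fit of all probes with the block, the second Ifit2 probe passed (limma adjusted p = 0.0349). The further Parp14 probes gave 0.0274 and 0.256 there. Further probes of Cxcl10, Ifit3, Oasl1, Usp18 and Dhx58 did not pass (0.0514 to 0.144). Isg15 and Stat2, with 1 probe each, gave 0.0514 and 0.0561 in that fit.

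Cxcl10 read 5.19, 5.30, 5.68, 5.55 and 5.84 in cc and 6.77, 6.98, 7.58, 8.51 and 9.97 in CD-cc. The groups did not overlap, and the level was 5.45-fold higher (log2 2.45 ± 0.544, limma adjusted p = 0.124 without the block and 0.0145 with it). Rsad2 read 10.54, 10.18, 10.97, 10.51 and 12.004 in CD-cc, all above its highest cc array of 10.12. It was 3.03-fold higher (log2 1.60 ± 0.444, adjusted p = 0.225, and 0.016 with the block). Oasl1 read 5.88, 5.65, 6.44, 4.83 and 5.86 in cc and 6.78, 6.26, 7.50, 6.59 and 8.89 in CD-cc, 2.78-fold higher with a slight overlap (adjusted p = 0.283, and 0.0153 with the block). Ifi205 read 4.52, 4.17, 4.54, 4.22 and 4.27 in cc, detected on no array, and 4.79, 4.59, 5.67, 6.04 and 7.79 in CD-cc, detected on 3. By this probe it was at least 2.09-fold higher, again a description only. The other 2 Ifi205 probes gave smaller log2 changes of 0.45 and 0.39.

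The effectors next in size were close to each other. Cmpk2, a mitochondrial nucleotide kinase and the chromosome 12 neighbour of Rsad2, differed by 1.40 ± 0.406 (set block adjusted p = 0.00887), and Ifit2 and Ifit3, neighbours on chromosome 19, by 1.37 ± 0.452 and 1.35 ± 0.437 (0.0145 and 0.00625). Mx2, a dynamin-like GTPase, differed by 1.24 ± 0.346, Usp18 by 1.17 ± 0.336 and the ubiquitin-like Isg15 by 1.06 ± 0.357, each higher in 5 of 5 sets. The spread between sets was wide for all of them. Ifit3, for example, ran from 8.44 to 10.33 in cc and from 9.74 to 11.30 in CD-cc, so that the groups overlapped although CD-cc was higher in every set.

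The drivers differed less evenly. Stat2 read 6.76, 7.50, 7.60, 6.89 and 7.76 in CD-cc, 1.49-fold higher than in cc (log2 0.58 ± 0.211, adjusted p = 0.426, and 0.0476 with the block). Irf7 read 6.60, 7.45, 7.95, 6.29 and 7.57 (0.64 ± 0.422) and Irf9 8.37, 8.74, 8.92, 8.72 and 9.29 (0.30 ± 0.147), each higher in 5 of 5 sets but past the threshold in neither fit. Irf1 read 11.21, 10.77, 11.11, 12.65 and 12.66, with the arrays of sets 4 and 5 far above the rest, a difference of 1.20 ± 0.349 (adjusted p = 0.248, and 0.0612 with the block). At the low end Samhd1 read 9.11, 9.20, 9.32, 8.80 and 9.36 (-0.10 ± 0.162). Ifih1 read 4.99, 4.62, 4.84, 4.45 and 4.23 in cc and 4.62, 4.46, 4.37, 4.52 and 5.04 in CD-cc (-0.03 ± 0.19), detected on 2 and 1 arrays, so its level there is close to background.

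The direction was shared widely. Of 34 members 32 lay above 0, and 24 were higher in 5 of 5 sets, against 7.66 percent of all genes, while 0 were lower in all 5, against 9.29 percent. The median log2 change was 0.59, against -0.0202 for all genes. Without Ifi205 31 of 33 members lay above 0 and 23 of 33 were higher in 5 of 5 sets, with a median of 0.58. The exceptions below 0 were Samhd1 and Ifih1, while Bst2 (tetherin, 0.10 ± 0.426) and Ifitm3 (which blocks virus entry at membranes, 0.03 ± 0.236) differed by less than their errors. Without set 4 the block fit called 0 members, and without set 1, 2, 3 or 5 it called 9, 8, 10 and 8. No share of all genes is given beside these counts.

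Cells given both agents had more members called against untreated cells, in a comparison where many other genes were called too. In CD-cc against con 9 members rose and 1 fell, beside 20.2 percent of all genes called, 9.06 percent higher and 11.1 percent lower. Ifi205 is one of the 9, and over the 33 other members the count is 8. These were Rsad2, Cxcl10, Oasl1, Ifit2, Cmpk2, Usp18, Isg15 and Tor3a, and the one that fell was Samhd1. Kit had a mean of 4.49 in con and 8.01 in CD-cc, and the plasmacytoid dendritic markers a median of 5.38 and 6.26. B cell markers had medians of 5.13 and 4.72, neutrophil 6.14 and 6.37, and stromal fibroblast 5.65 and 5.63. T and NK markers had 4.49 and 4.61, and erythroid 4.62 and 4.76. The part of these genes in the calls was not tested. Rsad2 was 5.18-fold higher (log2 2.37 ± 0.444, limma adjusted p = 0.000978) and Cxcl10 6.58-fold (2.72 ± 0.544, adjusted p = 0.00156). Neither overlapped with con. Oasl1 was 3.41-fold higher (1.77 ± 0.446, adjusted p = 0.00783), also without overlap. Ifit2, at 9.37, 9.29, 10.26, 8.57 and 10.51, was 3.33-fold higher (1.73 ± 0.452, adjusted p = 0.00975) and overlapped with con through its array of set 4. Samhd1 was 1.54-fold lower (-0.62 ± 0.162, adjusted p = 0.00981) with no overlap. Oas2, at 7.94, 7.86, 8.63, 7.92 and 8.60, was the next lowest, with -0.25 ± 0.206 (adjusted p = 0.436).

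With the set as a block 16 members rose (15 without Ifi205) and 1 fell in this comparison, beside 31.8 percent of all genes called, 13.7 percent higher and 18.1 percent lower. The added 7 were Mx1, Mx2, Ifit3, Irf1, Parp14, Oas1a and Ifi35. Of the drivers Irf1 alone was among them (0.90 ± 0.349 without the block, adjusted p = 0.0753, and 0.0363 with it). Stat2, Irf7 and Irf9 differed from con by 0.11 ± 0.211, 0.10 ± 0.422 and -0.14 ± 0.147 and passed with neither fit. The member median was 0.42, against -0.0262 for all genes, with 27 above 0 and 7 below. Without Ifi205 26 of 33 lay above 0, with a median of 0.41.

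Among cells that all received cyclodextrin, the share of members that differed with prior crystals was no higher than that of all genes, with Rsad2, Cmpk2, Ifit2 and Usp18 higher and Irf9 lower in the fit within sets. In CD-cc against CD limma called 0 of 34 members without a block, beside 9.2 percent of all genes (4.56 percent higher and 4.64 percent lower), with 3 members and 22.5 percent of genes at an unadjusted p below 0.05. With the block 4 rose and 1 fell (14.7 percent of members), beside 18.5 percent of all genes called, 8.46 percent higher and 10.1 percent lower. Rsad2 was 1.99-fold higher in CD-cc (log2 1.00 ± 0.444, adjusted p = 0.186, and 0.0316 with the block) and was higher in every set. Cmpk2 read 8.39, 7.95, 9.04, 8.20 and 9.66 in CD and 9.36, 9.002, 9.76, 8.60 and 10.60 in CD-cc, 0.82 ± 0.406 higher (0.0208 with the block). Ifit2, at 8.501, 8.44, 9.69, 8.08 and 9.41 in CD, was 0.77 ± 0.452 higher (0.0417 with the block), and Usp18 0.58 ± 0.336 (0.043). Oasl1 differed by 0.65 ± 0.446 and passed in neither fit. Irf9 was 1.29-fold lower in CD-cc (-0.37 ± 0.147, adjusted p = 0.129, and 0.0373 with the block), and Samhd1 differed by -0.35 ± 0.162. In the fit of all probes with the block, further probes of Ifit2, Usp18 and Irf9 did not pass (limma adjusted p = 0.114, 0.128 and 0.379). A further Samhd1 probe did (0.00829). Cxcl10 and Irf1 differed by -0.01 ± 0.544 and 0.01 ± 0.349, errors wide enough to hold a change. The median of all members was 0.01. Without set 1, 2, 3, 4 or 5 in turn the block fit called 0, 0, 1, 2 and 7 members, again without a share of all genes beside them. Kit had a mean of 4.43 in CD and 8.01 in CD-cc, and the plasmacytoid dendritic markers a median of 5.65 and 6.26. B cell markers had medians of 5.01 and 4.72, neutrophil 6.19 and 6.37, and stromal fibroblast 5.39 and 5.63. T and NK markers had 4.61 in both, and erythroid 4.65 and 4.76. The part of these genes in the differences was not tested. In this comparison 6 members were higher in 5 of 5 sets, beside 14.1 percent of all genes, and Oas2 and Ifitm3 were lower in all 5, beside 16.2 percent.

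The interaction asks whether cyclodextrin changed a gene more with crystals than without. Limma called 0 of 34 members, beside 0.0399 percent of all genes, and 0 members reached an unadjusted p below 0.05, against 2.3 percent of all genes. With the set as a block it again called 0, beside 0.14 percent of all genes, with 5 members and 5.18 percent of all genes at an unadjusted p below 0.05. The largest values were 0.75 ± 0.575 for Cmpk2, 0.65 ± 0.617 for Ifit3, 0.56 ± 0.489 for Mx2 and 0.54 ± 0.291 for Oas2. Ifit3 read 10.21, 9.89, 10.88, 8.34 and 9.17 in con, 9.10, 9.07, 10.33, 8.44 and 9.37 in cc, 10.11, 10.61, 11.09, 9.35 and 10.77 in CD and 10.29, 10.54, 11.30, 9.74 and 11.19 in CD-cc. Mx2 read 6.07, 5.59, 6.18, 4.82 and 5.55 in con, 5.50, 4.83, 5.598, 5.15 and 5.55 in cc, 6.13, 5.94, 6.78, 5.40 and 7.36 in CD and 6.29, 6.04, 6.76, 6.08 and 7.65 in CD-cc. All 4 groups of Ifit3 overlapped, and those of Mx2 did too except that each CD-cc array lay above every cc array. Cmpk2 read 8.61, 7.94, 8.19, 7.20 and 8.03 in con and 8.03, 7.47, 9.16, 7.13 and 8.53 in cc, beside its CD and CD-cc values above, and Oas2 read 8.14, 8.57, 8.90, 8.01 and 8.78 in CD. At the other end lay Cxcl10 with -0.28 ± 0.769 and Ifi204, a p200-family DNA sensor, with -0.28 ± 0.414. Ifi204 read 5.88, 5.39, 5.37, 4.76 and 5.39 in con, 5.25, 4.85, 6.01, 4.85 and 5.62 in cc, 5.71, 5.32, 6.30, 5.64 and 5.41 in CD and 5.00, 4.96, 5.92, 4.69 and 6.21 in CD-cc, and all 4 groups overlapped. The median was 0.26, with 28 of 34 members above 0 against 49.9 percent of all genes. In 5 of 5 sets 7 members (20.6 percent) lay above 0, beside 4.22 percent of all genes. None lay below 0 in all 5, beside 4.67 percent. These are counts without a test. CD against con and CD-cc against cc share no array, nor do cc against con and CD-cc against CD, whereas every other pair of these comparisons shares a group.

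Read by role, the median log2 change in CD-cc against cc was 1.40 over the nucleotide enzymes Cmpk2, Rsad2 and Samhd1, 1.36 over the IFIT genes and 0.61 over the 4 drivers. Both tested IFIT genes, both members of the ISG15 system and Mx2 rose with the set block, while Mx1, detected on 8 arrays, did not (0.57 ± 0.324). Of the OAS family Oas2 and Oasl1 rose, whereas Oasl2 (0.48 ± 0.335), Oas3 (0.25 ± 0.361) and Oas1a (0.12 ± 0.184) did not pass. Of 7 tested RNA and DNA sensors only Dhx58 rose with the block (0.60 ± 0.27, limma adjusted p = 0.027). The RIG-I gene Ddx58 differed by 0.69 ± 0.252, Eif2ak2 by 0.42 ± 0.181 and Zbp1, a sensor of left-handed nucleic acid, by 0.29 ± 0.206. The remaining members were Parp9 (0.42 ± 0.166), the GTPase Ifi47 (0.92 ± 0.434), Ifi35 (0.29 ± 0.275), Tor3a (0.65 ± 0.236) and Trim30a (0.26), none of which passed.

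Responses to cyclodextrin were larger on chips 2, 3, 4 and 6 than on chips 1 and 5 for most members. In CD against con 27 of 34 members (26 of 33 without Ifi205) had the larger value there, against 48.5 percent of all genes. Medians were 0.62 on chips 2, 3, 4 and 6 and 0.23 on chips 1 and 5. In CD-cc against cc the count was 30 of 34 (29 of 33 without Ifi205), against 45.5 percent, with medians of 0.74 and 0.45. The difference itself passed for 1 member, Irf1, in each of the 2 comparisons, beside 0.809 and 0.799 percent of all genes. Irf1 differed between CD and con by 0.26 on chips 1 and 5 and by 1.83 on chips 2, 3, 4 and 6 (limma, difference 1.57, adjusted p = 0.0166), and between CD-cc and cc by 0.46 and 2.31 (0.00507). Its 4 detected probes were alike in size over all arrays, from 0.83 to 1.06 in CD against con.

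With the set as a block within each batch the difference passed for 4 members in CD against con (Cxcl10, Irf1, Rsad2 and Ifi205) and 3 in CD-cc against cc (Cxcl10, Irf1 and Ifi205), beside 2.05 and 2.28 percent of all genes. Leaving out Ifi205 these counts are 3 and 2. For Cxcl10 the CD against con value was 1.69 in sets 1 to 3 and 4.29 in sets 4 and 5, and the CD-cc against cc value 1.72 and 3.54. For cc against con and CD-cc against CD limma called the difference for 0 members without the set block, beside 0.13 and 0.0599 percent of all genes. At an unadjusted p below 0.05 these were 0 and 1 members, against 8.04 and 5.42 percent of all genes. With the set block it again called 0 in each, beside 1.21 and 0.339 percent, with 5 and 4 members at an unadjusted p below 0.05, against 12.4 and 9.13 percent of all genes. In CD-cc against con it was called for Irf1 and Cxcl10, beside 1.28 percent of all genes. With the block it was called for 6 members (5 without Ifi205), beside 2.93 percent. Sex, chip and anything else that differed between the batches cannot be told apart in these differences.

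**Figure D3:**
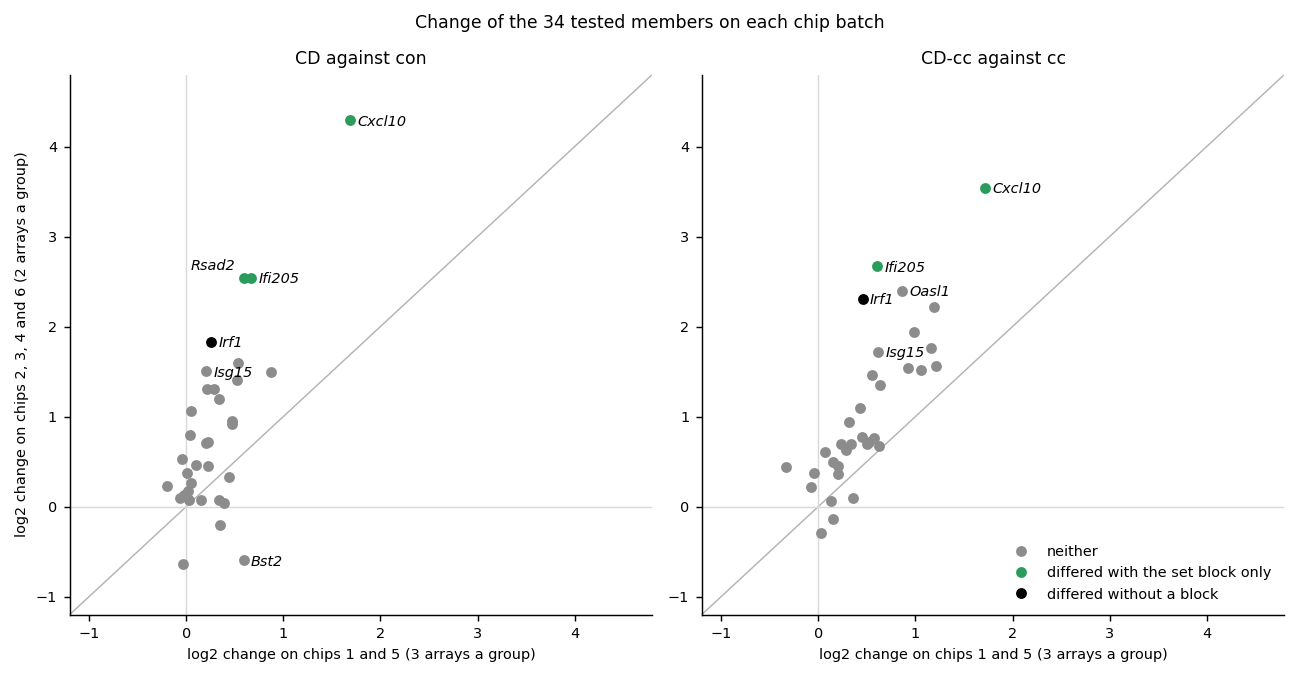
Log2 change of the 34 tested members on chips 1 and 5 (x axis) against chips 2, 3, 4 and 6 (y axis) in 2 comparisons, with the line of equal change. Most points lie above the line, and Irf1 (0.26 and 1.83, 0.46 and 2.31) is the member whose difference passed without a block.

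The batches also differed before any treatment. In con cells 30 of 34 members were lower on chips 2, 3, 4 and 6 (2 arrays) than on chips 1 and 5 (3 arrays), with a median of -0.48 against -0.02375 for all genes, of which 52.8 percent were lower. For 18 members both arrays lay below all 3, beside 20.7 percent of all genes, and for 1 (Tor3a) both lay above, beside 18.8 percent. Ifit3 differed by -1.57, Irf7 by -1.35, Ifi47 by -1.25 and Ifit2 by -1.19. Of the members with a large cyclodextrin response on chips 2, 3, 4 and 6, Rsad2 differed in con by -1.04, Cxcl10 by -0.74 and Irf1 by -0.39. With 2 arrays against 3 this is a description without a test.

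Trim30a, a ubiquitin ligase that restrains NF-kB signalling in the mouse, was set apart by its batches. It read from 8.69 to 9.89 on the 12 arrays of chips 1 and 5, all detected, and from 4.20 to 4.76 on the 8 other arrays, of which 1 detected it. The level on chips 1 and 5 was at least 24.0-fold higher. Of all genes tested, 3 had a larger gap between the batches, Xist, Eif2s3y and Thumpd1. Within chips 1 and 5 Trim30a differed by -0.54 in cc against con, and with the set as a block over all arrays it did not pass (adjusted p = 0.0701).

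**Figure D4:**
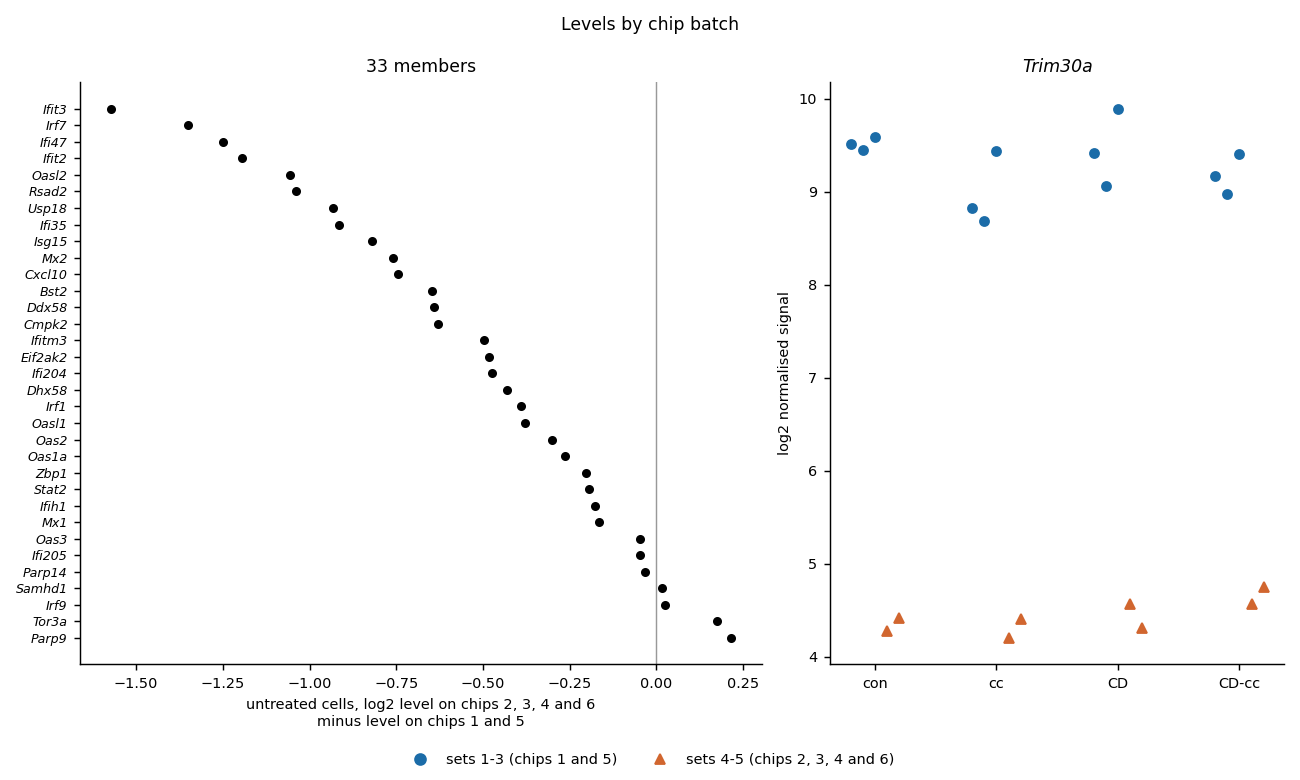
Left, difference of the con level between the batches in log2 units (x axis) for the 33 tested members other than Trim30a, of which 29 lie below 0. Right, log2 signal of Trim30a on each array by group, high on sets 1 to 3 and near background on sets 4 and 5.

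Genes around the programme, which are no members, were followed in 5 lists. Counts in cc against con stand beside 17.5 percent of all genes called without a block and 27.7 percent with it. Of 18 tested genes of interferon sensing and induction, 1 rose and 3 fell in cc against con, and 3 rose and 6 fell with the set block. Sting1, the adaptor of the cytosolic DNA sensor, was lower (log2 -1.05 ± 0.292, limma adjusted p = 0.0167), and Ticam2, an adaptor of TLR4, was 1.75-fold higher (0.80 ± 0.176, adjusted p = 0.00352). Irf3, which acts at the interferon genes, differed by -0.21 ± 0.122 and did not pass (limma adjusted p = 0.275). Of 7 receptor and signalling genes 1 fell (3 with the block), the interferon gamma receptor chain Ifngr1 (-0.86 ± 0.159, adjusted p = 0.000986), while Ifnar2 did not pass (-0.27 ± 0.2). Of 9 genes that restrain the pathway 2 rose and 3 fell, with the same counts under the block. Ptpn1, a phosphatase acting on JAK and TYK2 kinases, rose by 0.91 ± 0.205, and the DNA exonuclease Trex1 and the phosphatase Ptpn6 fell (-0.96 ± 0.27 and -0.88 ± 0.21, adjusted p = 0.0183 and 0.00644).

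Among 36 tested further interferon-stimulated genes, 2 rose and 5 fell with crystals (2 and 10 with the block), a share near the 17.5 percent of all genes, with a median of -0.14. Cd274, the checkpoint ligand PD-L1, was 7.81-fold higher (2.97 ± 0.464, adjusted p = 0.000235), while Epsti1 (-0.83 ± 0.274) and the immunoproteasome subunit Psmb9 (-0.80 ± 0.212) fell. In CD against con 1 of the 36 rose, beside 0.848 percent of all genes, Slfn2, a regulator of immune cell quiescence (1.22 ± 0.229, adjusted p = 0.0105), and of the 18 sensing genes Tlr4 fell (-0.86 ± 0.156, adjusted p = 0.00832). In CD-cc against cc 0 passed without a block and 8 of 36 rose with it, beside the 1.29 percent of all genes, with a median of 0.34. The largest of the 8 was the guanylate-binding Gbp2 (1.69 ± 0.434, set block adjusted p = 0.0317). In CD-cc against con 6 of 36 rose, beside 9.06 percent of all genes called higher, among them Cd274 (3.24 ± 0.464), Gbp2 (2.37 ± 0.434) and the chemokine Ccl5 (1.87 ± 0.537). Ccl5 differed by 0.52 on chips 1 and 5 and by 3.90 elsewhere (limma, adjusted p for that gap 0.0226). The restraining gene Socs3, an inhibitor of JAK kinases, followed the same split in CD against con, with 1.32 and 4.76 (0.00152).

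Where a member had further detected probes they mostly pointed the same way, and whether they gave smaller changes depended on the comparison. For 12 members 18 such probes existed. In CD-cc against cc all 18 had the sign of the probe standing for the gene and 13 were smaller. In CD against con 15 of 18 had the same sign and 16 were smaller, in cc against con 16 and 10, and in CD-cc against con 15 and 12. In CD-cc against CD 13 had the same sign and 7 were smaller, and in the interaction 14 and 6.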

How the data were processed

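RNA of 20 macrophage samples was read on Illumina bead arrays. The deposited bead table, named by the authors as non-normalized, holds a signal intensity per probe and array and, per the file headers, a detection p-value beside it. A second deposited table holds the authors' log2 values, and recomputation matched them to quantile-normalised log2 intensities with a mean adjustment for each of 5 sets of 4 arrays (SD of the differences 6.96e-05, largest 0.0185). Partek is named in the submitters' processing notes, with no version.

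Intensities were background-corrected, quantile-normalised and logged with neqc of limma 3.58.1 in R 4.3.3 (offset 16, which understates changes of dim probes). Probes with a detection p-value below 0.05 on at least 5 of 20 arrays were kept (18348 of 45281). Of the 45281 probes, 34885 had 1 gene symbol in the platform annotation, 18 had several and 10378 none, and the probe with the highest mean stood for its gene, which left 10018 genes. Limma was fitted over all 4 groups without a block, and the alternatives are given in the closing section, with the set as a block as the one most often quoted. Replicate numbers did not pair the arrays, since deviations of same-numbered arrays correlated between -0.56 and 0.65 (median -0.20, 30 pairs). Arrays of the same set correlated with a median of 0.53. Scripts were tested on simulated data.

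The members and gene lists were chosen with earlier results of these data known. Values on every array are given, for each comparison, for the 4 members with the largest rise, the 2 with the largest fall and the 4 drivers. Where the lower group detected no array, a fold is a bound against the lowest detected signal.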

Additional observations from a re-analysis of the deposited data

Results flagged for a closer look

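The change with cyclodextrin differed between chips 2, 3, 4 and 6 and chips 1 and 5 for 2 members in the fit without a block. For Irf1 the gap was 1.57 log2 units in CD against con (0.26 and 1.83, limma adjusted p = 0.0166). In CD-cc against cc it was 1.86 (0.46 and 2.31, limma adjusted p = 0.00507). In CD-cc against con it was 2.01 (0.09 and 2.11, limma adjusted p = 0.00245). For Cxcl10 in CD-cc against con the gap was 2.88 (1.57 and 4.44, limma adjusted p = 0.0371). These batches also differ in Xist and Eif2s3y, so that chip, sex and anything else that differed between the batches cannot be told apart. In 80 groups of 5 arrays, from 20 members, no array stood apart by Dixon's criterion.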

How the results depend on the processing

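Counts of members called moved with the treatment of the sets. In the order of the 5 comparisons below, the main fit called 17.5, 1.13, 0, 20.2 and 9.2 percent of all genes. With the set block these shares were 27.7, 4.12, 1.8, 31.8 and 18.5 percent, so they moved too. Shares of all genes are not given for the other settings, sets left out included. Those counts therefore do not tell whether members moved more than other genes. In cc against con 3 members were called, against 0 with scale normalization, 9 in the authors' table with the set block, 1 with chip as a fixed block, 8 with the set block, 0 on chips 2, 3, 4 and 6 alone, and 5, 7 and 11 with the set block when set 2, 4 or 5 was left out. In CD against con 1 was called, against 0 with quantile normalization without background correction, 4 in the authors' table, 7 with the set block, 3 on chips 2, 3, 4 and 6, 0 on chip 5 alone, and 7, 4, 3, 1 and 3 with the set block when set 1, 2, 3, 4 or 5 was left out. In CD-cc against cc 0 were called, against 11 in the authors' table, 13 with the set block, 4 on chips 2, 3, 4 and 6, and 9, 8, 10 and 8 without set 1, 2, 3 or 5. In CD-cc against con 10 were called, against 16 in the authors' table, 4 with chip as a fixed block, 17 with the set block, 5 on chips 1 and 5, and 16 and 17 without set 1 or 2. In CD-cc against CD 0 were called, against 5 in the authors' table, 5 with the set block, and 1, 2 and 7 without set 3, 4 or 5. Sets were left out as an alternative chosen after seeing the data. Members whose change differed between chip batches numbered 1 in CD against con (0 with scale normalization, 3 in the authors' table, 4 with the set block) and 1 in CD-cc against cc (3 and 3). The cause of these shifts was not tested.

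Leaving out 1 array gave 1 to 3 calls in cc against con, 0 to 1 in CD against con (0 without CD replicate 1), 0 in CD-cc against cc, 8 to 13 in CD-cc against con and 0 to 1 in CD-cc against CD. Batch differences ranged from 0 to 2 in CD against con and in CD-cc against cc. The median change in cc against con ranged from -0.234 to 0.0788, and was above 0 without con replicate 1 (0.0656) and without cc replicate 3 (0.0788). With the replicate block the counts were 3, 1, 0, 10, 0 and, for the interaction, 0, as without it. The replicate numbers pair no arrays by label. Of single-member changes, 958 of those with 1 array left out kept their direction and their side of the threshold, 29 no longer passed and 13 newly passed. Under the other settings 670 kept both, 36 no longer passed and 163 newly passed. The changes followed were those called with or without the set block, and most of them did not pass in the main fit. Most that kept their side were therefore changes that stayed uncalled. These counts say little about how stable the calls were. Ages differ between con and the other groups, 5 arrays a group limit precision, and dim probes near background carry little information on fold size.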
